A study of Mus musculus with 12 samples.

Results

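The genes described here encode 9 receptors of the B cell surface: Cd79a, Cd79b, Cd22, Cd72, Ms4a1, Cr2, Fcer2a, Fcmr and Cxcr5. They were taken by gene name from the table of read counts, and all 9 were found among its 34745 genes. In the marrow of model mice, which were given cyclophosphamide with saline, the counts of the 9 genes together, scaled for library size, were 2.13% of those of the normal group (95% counting interval 1.99 to 2.28%). The share was 3.44, 1.53 and 1.30% in the 3 model libraries taken singly, and without model library 1 the pooled share was 1.41% (95% counting interval 1.27 to 1.56%). Each of the 9 was decreased, from a fold of 21.0 for Cd79b to a fold of 2833 for Ms4a1, taking the pooled counts of 3 mice per group. Against the model group, only Cd79b, Cd22 and Cd72 had enough counts for the edgeR test with QJSB or leucogen, and 0 of these 3 were called higher with either. The other 6 genes were left out of that test. Over all genes tested, 0% were called either way with QJSB, and 11.6% were called higher and 11.5% lower with leucogen. Cd79b was called lower with leucogen than in the model group, a call lost in 4 of the 6 fits that left out 1 library.

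The receptor with which a B cell senses antigen is a membrane immunoglobulin held together with the signaling chains CD79A and CD79B. Coreceptors set the strength of its signal, CD22 and CD72 downwards and the complement receptor CD21 upwards. B cells are made in the bone marrow, where precursors already carry the CD79 chains, while CD21, CD23 and FcμR are marks of more mature B cells, some of which return to the marrow from the blood. Cyclophosphamide is an alkylating agent that kills dividing cells, and B lineage cells are known to be sensitive to it.

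RNA of total femoral marrow cells was sequenced from 12 male mice of the outbred ICR strain, 1 mouse per library and 3 per group. The normal group received saline. The model group received cyclophosphamide intraperitoneally at 80 mg/kg/day on days 5 to 7 of a 1 week schedule, with saline by mouth. The QJSB group received the same cyclophosphamide with QJSB, a herbal preparation, at 3 g/kg/day by mouth, and the leucogen group the same cyclophosphamide with leucogen, a drug used against low white cell counts, at 20 mg/kg/day by mouth. Every group but the normal one had therefore been given cyclophosphamide, and no group received QJSB or leucogen alone. The age of the mice is not given in the sources used here.

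The 12 libraries held 11172547 to 18545198 counts each. The table calls its columns Blank, Model, Positive or Stilbene, which were read as the normal, model, leucogen and QJSB groups by the meaning of the words and by elimination. Normal marrow carried genes of red cell precursors, neutrophils and B cells together, as total marrow should. Levels are given as counts per 1000000 counts of the scaled library (CPM), or as FPKM, which also divides by transcript length, where different genes are compared. A gene was called where the edgeR quasi-likelihood test gave an adjusted p under 0.05 and the fold change was beyond 1.5 in either direction. In bulk marrow, fewer cells of a type and less RNA per cell cannot be told apart.

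The 9 genes lie on 7 chromosomes, and every one is annotated as protein coding (GRCm38, GENCODE M21). Cd79a (chr7:24897381-24902197) and Cd22 (chr7:30865402-30880342) share chromosome 7, and Cr2 (chr1:195136811-195176716) and Fcmr (chr1:130865669-130880791) share chromosome 1. The others are Cd79b (chr11:106311341-106314762), Cd72 (chr4:43446462-43454628), Ms4a1 (chr19:11249675-11266241), Fcer2a (chr8:3681737-3694174) and Cxcr5 (chr9:44511788-44556391). The spans are those of the table, of which 7 are identical in GENCODE M21 and those of Fcer2a and Cxcr5 differ. Each span covers the exons, the introns and both untranslated ends of the gene. Cd72 overlaps Tesk1 and Cxcr5 overlaps Bcl9l on the opposite strand, and whether strand was used in counting is not given in the sources used here, so some of the few reads left in these 2 genes may be shared. Tesk1 had 360 counts in the 3 normal libraries together and 238 in the model group, and Bcl9l had 446 and 551.

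The 250 bases before the start site are shown for 5 of the 9 genes, from genes that kept part of their counts (Cd79a, Cd22, Cd72) and genes that came close to 0 (Cr2, Fcmr). RefSeq start sites (GRCm38.p6) were given for 6 of the 9 genes, in 8 windows. Cd79b, Ms4a1 and Cxcr5 are not shown. The RefSeq start used for Cd22 lies inside the span given above, so its whole window is within the gene. The windows of Cd79a and Fcmr run part of the way into their spans. Capitals mark matches on either strand to any of 5 motifs of B lineage and general factors. These are the octamer ATGCAAAT, the EBF1 site TCCCNNGGGA, the E-box CAGNTG, the PU box GAGGAA and the TATA box TATAAA, and no 2 marked matches overlap. The windows are those of Cd79a (chr7:24897247-24897496, plus strand), Cd22 (chr7:30879029-30879278, minus strand), Cd72 (chr4:43454627-43454876, minus strand), Cr2 (chr1:195176720-195176969, minus strand) and Fcmr (chr1:130865527-130865776, plus strand), each read 5′ to 3′ along its gene.
Cd79a: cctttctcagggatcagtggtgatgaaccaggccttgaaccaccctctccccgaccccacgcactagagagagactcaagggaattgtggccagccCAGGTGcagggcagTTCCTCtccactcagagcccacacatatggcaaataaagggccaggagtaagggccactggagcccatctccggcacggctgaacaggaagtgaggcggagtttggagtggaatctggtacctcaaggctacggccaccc
Cd22: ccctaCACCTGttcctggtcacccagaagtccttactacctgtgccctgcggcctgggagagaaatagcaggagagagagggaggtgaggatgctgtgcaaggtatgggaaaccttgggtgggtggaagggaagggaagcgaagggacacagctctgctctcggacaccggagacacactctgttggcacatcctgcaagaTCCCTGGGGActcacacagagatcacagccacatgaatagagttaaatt
Cd72: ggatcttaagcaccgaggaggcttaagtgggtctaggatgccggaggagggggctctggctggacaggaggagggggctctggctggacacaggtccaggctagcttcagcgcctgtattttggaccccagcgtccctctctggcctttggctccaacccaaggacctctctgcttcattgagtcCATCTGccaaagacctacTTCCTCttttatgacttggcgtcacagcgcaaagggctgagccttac
Cr2: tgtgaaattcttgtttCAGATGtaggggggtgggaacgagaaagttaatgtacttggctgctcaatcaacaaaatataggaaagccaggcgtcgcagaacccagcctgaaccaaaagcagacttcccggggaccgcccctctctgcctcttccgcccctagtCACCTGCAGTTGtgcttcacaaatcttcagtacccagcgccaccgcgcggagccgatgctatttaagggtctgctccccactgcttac
Fcmr: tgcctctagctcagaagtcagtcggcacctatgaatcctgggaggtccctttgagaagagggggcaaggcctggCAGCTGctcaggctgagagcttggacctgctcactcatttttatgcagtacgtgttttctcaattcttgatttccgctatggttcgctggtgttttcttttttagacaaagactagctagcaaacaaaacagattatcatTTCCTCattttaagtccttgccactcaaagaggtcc

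An E-box, the motif of basic helix-loop-helix factors such as E2A, was in 6 of the 8 windows of these genes and in 44.8% of all 32851 windows. A PU box, the core bound by PU.1 and related factors, was in 3 of 8 windows (Cd79a, Cd72 and Fcmr) and in 23.3% of all. The Cd22 window holds the only EBF1 site, 49 to 40 bases before a start that lies inside the annotated span of the gene. This motif was found in 0.779% of all windows. The TATA box was in 1 of the 3 windows of Fcer2a and in 12.4% of all windows. No window of these genes held the octamer, which was in 1.60% of all windows. These are matches of letters only.

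Cyclophosphamide was compared with saline by setting the model group against the normal group. All 9 receptor genes passed the filter on low counts, and all 9 were called lower. Only Cd79b and Cd22 had at least 10 counts in every library, and the others passed the filter through the normal group. Over the 14752 genes tested, 19.0% were called lower and 16.1% higher. The median log2 fold change of the 9 genes was −5.67, against 0.02 over all genes tested. The lowest normal library was above the highest model library for each of the 9 genes, as it was for 28.6% of all genes tested.

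The CD79 chains carry the signal of the antigen receptor into the cell. Cd79b was counted 3430, 3596 and 3703 times in the 3 normal libraries and 328, 125 and 128 times in the model libraries. Cd79a was counted 985, 1213 and 1211 times in the normal and 64, 15 and 5 times in the model libraries. For both genes the groups stood far apart, and model library 1 was the highest of its group. Cd79b was decreased by a log2 fold change of −4.41 (SE 0.36, adjusted p = 0.000108 by edgeR) and kept 4.76% of its normal level. Cd79a had a log2 fold change of −5.53 (SE 0.68, adjusted p = 0.00109 by edgeR), with 2.17% of the normal level left. Without model library 1 its log2 fold change was −6.91.

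CD22, a lectin that binds sialic acid, and CD72, the receptor of CD100, dampen the signal of the antigen receptor through the phosphatase SHP-1. Cd22 had 768, 975 and 1022 counts in the normal libraries and 67, 25 and 46 in the model libraries. Cd72 had 479, 502 and 575 counts in the normal libraries and 21, 11 and 6 in the model libraries. Neither gene showed any overlap between the groups, and both could still be counted in every model library. Cd22 had a log2 fold change of −4.52 (SE 0.27, adjusted p = 1.46e-05 by edgeR) and Cd72 one of −5.52 (SE 0.34, adjusted p = 1.56e-05 by edgeR). The pooled counts left were 4.39% of normal for Cd22 and 2.15% for Cd72.

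Ms4a1 encodes CD20, a membrane protein of B cells and the target of rituximab in people. It had 2866, 3775 and 3324 counts in the normal libraries, and its pooled normal counts were second among the 9 genes to those of Cd79b. In the model libraries it had 4, 0 and 0 counts, all of them from model library 1. Ms4a1 thus had a log2 fold change of −11.33 (SE 0.46, adjusted p = 5.94e-06 by edgeR), and the pooled counts were 0.0353% of normal (95% counting interval 0.00962 to 0.0904%). Without model library 1 the log2 fold change of Ms4a1 was −14.74, a dependence on 1 library that the SE does not carry.

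Cr2 encodes CD21, the receptor for fragments of complement C3 on mature B cells, and in mice also CD35. Its counts were 1476, 1591 and 1080 in the normal libraries and 5, 1 and 1 in the model libraries. This was a log2 fold change of −9.32 (SE 0.38, adjusted p = 5.94e-06 by edgeR). Normal library 3 was lower than the other 2 normal libraries, but still above every library of the treated groups.

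Fcer2a, which encodes the low-affinity IgE receptor CD23, had 356, 513 and 458 counts in the normal libraries and 1, 0 and 2 in the model libraries. Fcmr, which encodes the IgM receptor FcμR, had 376, 534 and 546 counts in the normal libraries and 2, 1 and 0 in the model libraries. Each of these 2 genes thus had 3 counts over the whole model group. Both were called lower by edgeR (adjusted p = 5.94e-06 for each). The pooled counts left were 0.199% of normal for Fcer2a (95% counting interval 0.0409 to 0.582%) and 0.181% for Fcmr (0.0373 to 0.531%).

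CXCR5, the receptor for the chemokine CXCL13, guides B cells into follicles. Cxcr5 was the gene with the fewest normal counts of the 9, with 189, 294 and 254, and the model libraries had 10, 4 and 2. The groups did not overlap, and the log2 fold change was −5.67 (SE 0.41, adjusted p = 3.70e-05 by edgeR). The pooled counts left were 1.91% of normal, close to the shares of Cd79a and Cd72. Without model library 1 the log2 fold change of Cxcr5 was −6.40.

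**Figure D1:**
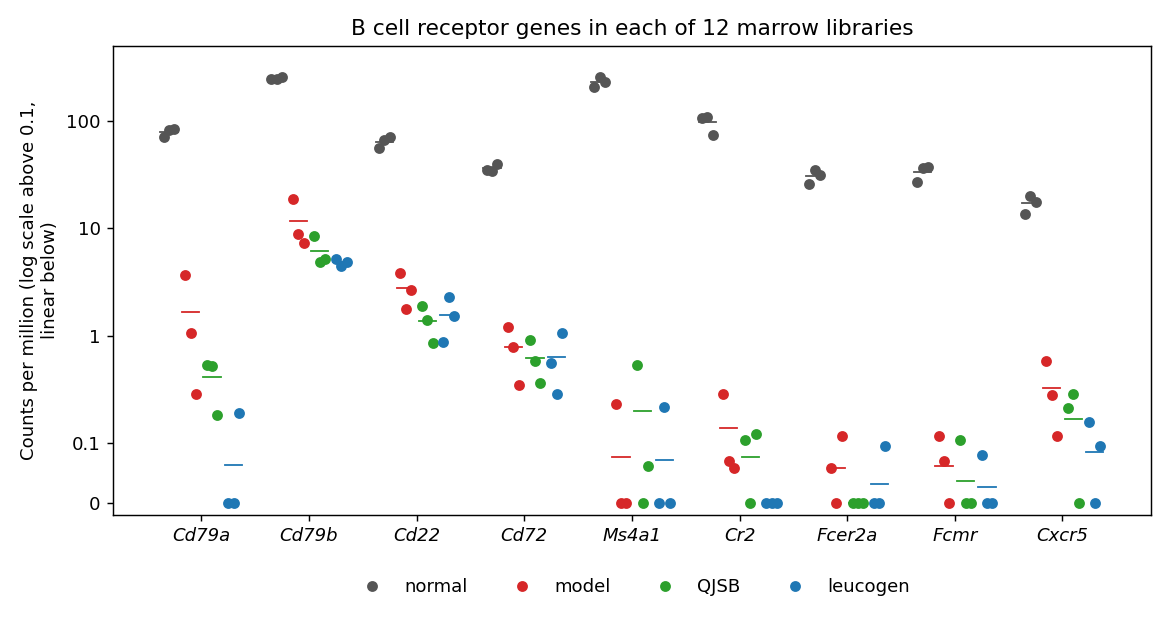
Level of the 9 receptor genes in each of the 12 libraries, in CPM on a scale that is logarithmic above 0.1 and linear below. Each dot is 1 mouse and each bar the mean of 3. The normal libraries lie above all treated libraries for every gene, and among the treated libraries Cd79b is the highest gene.

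The 9 genes fell unequally. Cd79b, Cd22, Cd79a, Cd72 and Cxcr5 kept between 1.91% and 4.76% of their normal pooled counts in the model group. Fcer2a, Fcmr, Cr2 and Ms4a1 kept between 0.0353% and 0.199%. The counting intervals of the 5 genes of the first set did not reach those of the 4 of the second, the nearest bounds being 1.09% for Cxcr5 and 0.582% for Fcer2a. These intervals cover counting error only and not the spread between mice, and the gap between them rested on model library 1. Without it, the first set kept 0.800 to 3.50% and the second 0 to 0.206%. Cd79a then kept 0.800% (95% counting interval 0.488 to 1.24%) and Cxcr5 1.11% (0.406 to 2.43%), and both intervals reached those of Fcer2a (0.0249 to 0.744%) and Fcmr (0.00237 to 0.523%). In model library 3 alone Cd79a stood at 0.363% of its normal level and Fcer2a at 0.373%.

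**Figure D2:**
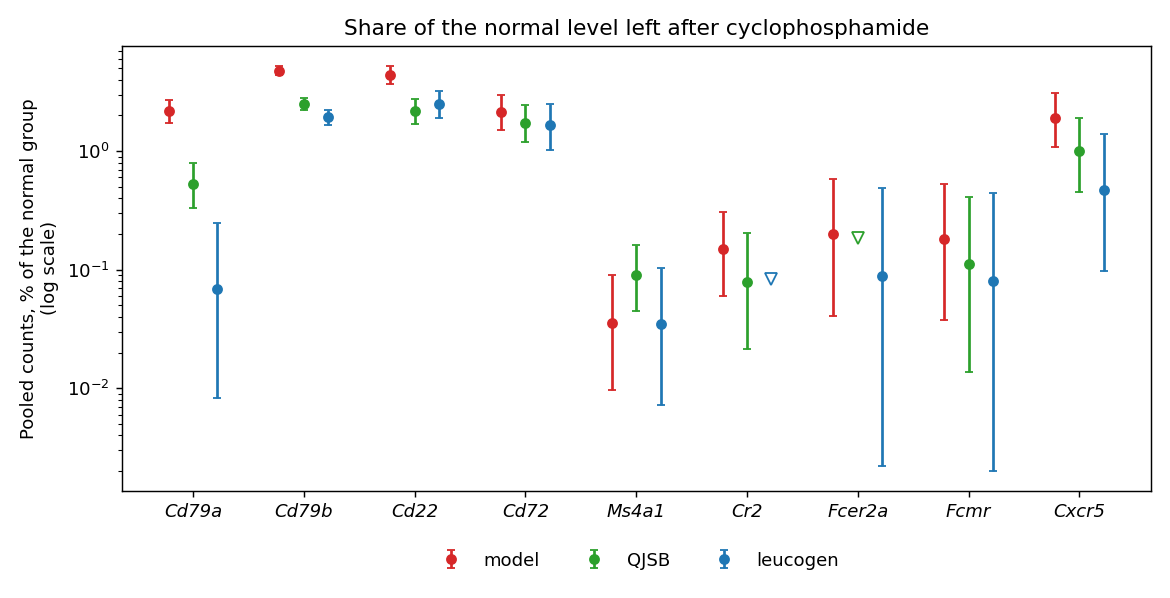
Pooled counts of 3 libraries in the model, QJSB and leucogen groups as a percentage of the normal group, on a log axis, with exact 95% counting intervals. Open triangles mark the bound given by 3 counts for the 2 cases with 0 counts. Cd79b, Cd22, Cd72 and Cxcr5 lie higher than Ms4a1, Cr2, Fcer2a and Fcmr in all 3 groups, and Cd79a lies lower with QJSB and leucogen than in the model group.

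The makeup of the receptor counts differed in the same way. In the normal libraries Cd79b made up 29.8% ± 1.93 and Ms4a1 27.5% ± 1.42 (SD, n = 3) of the counts of the 9 genes. In the model libraries Cd79b made up 67.1% ± 1.68 and Ms4a1 0.266% ± 0.460 (SD, n = 3). Cd22 was the second gene there, with 17.1% ± 6.16 (SD, n = 3), from 7.64% ± 0.694 in the normal libraries. With QJSB, Cd79b was 68.9% ± 6.96, and with leucogen 66.4% ± 7.97 (SD, n = 3), so that in every treated library it was the most counted of the 9 genes.

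**Figure D3:**
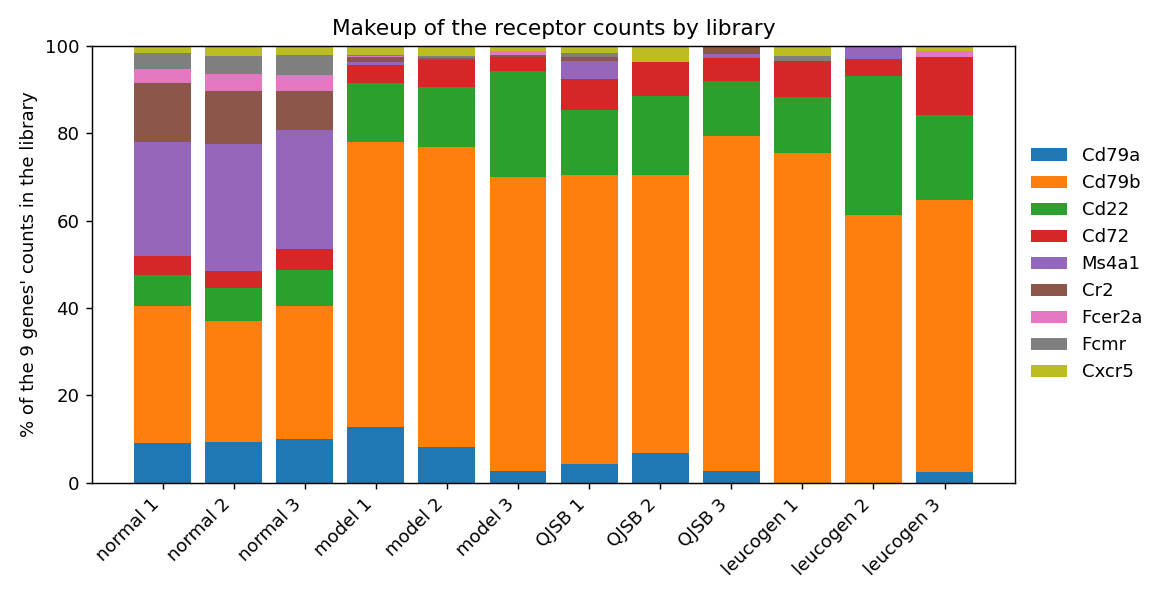
Share of each gene in the summed counts of the 9 receptor genes, in % by library. Bars are stacked to 100%. Ms4a1, Cr2, Fcer2a and Fcmr take up much of the bar in the normal libraries and little in the 9 treated libraries, where Cd79b holds over 60%.

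Per transcript length, Cd79b was again first in the normal marrow, while the order of the genes below it was not that of their counts. Cd79b had 117 ± 2.92 FPKM, Cd79a 53.5 ± 4.98 FPKM and Ms4a1 27.1 ± 3.07 FPKM (SD, n = 3), and the libraries of these 3 genes did not overlap. Next came Fcer2a (13.5 ± 2.12 FPKM), Fcmr (11.0 ± 1.93 FPKM) and Cr2 (8.67 ± 1.69 FPKM), whose neighbours in this order overlapped. Cd22 (6.06 ± 0.769 FPKM), Cxcr5 (5.75 ± 1.11 FPKM) and Cd72 (5.54 ± 0.489 FPKM) overlapped one another, and the highest Cxcr5 library reached the lowest Cr2 library. In the model group the order was led by Cd79b (6.06 ± 3.54 FPKM), Cd79a (1.28 ± 1.39 FPKM) and Cd22 (0.286 ± 0.120 FPKM). Model library 1, with 2.85 FPKM of Cd79a against 0.775 and 0.203 in the other 2, set much of the spread of that gene.

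CD79A and CD79B work as a pair, and the ratio of their FPKM was therefore followed in each library. Cd79b stood 2.41, 2.05 and 2.12 times above Cd79a in the normal libraries. In the model libraries the ratio was 3.55, 5.77 and 17.7, and with QJSB it was 10.9, 6.46 and 19.8. These ratios rested on 64, 15 and 5 counts of Cd79a in the model and 10, 9 and 3 in the QJSB libraries. The highest ratio of each group thus came from its fewest Cd79a counts. The treated libraries all lay above the normal ones. The exact permutation test, two-sided, gave p = 0.1 for the model and for the QJSB group, which is the smallest that 3 against 3 mice allow. With leucogen, 2 of 3 libraries had no Cd79a count, and the ratio of the third, at 17.7, rested on 2 counts of Cd79a.

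The QJSB group was compared with the normal group, which asks how far the marrow stood from normal after cyclophosphamide with QJSB. All 9 genes were called lower by edgeR, against 19.9% of all 14817 genes tested called lower and 18.0% higher. Here too only Cd79b and Cd22 had at least 10 counts in every library, and the others passed the filter through the normal group. In each of the 9 the highest QJSB library was below the lowest normal library, which held for 29.9% of all genes tested. Together the 9 genes had 1.09% of their normal counts (95% counting interval 0.996 to 1.20%). The fitted median log2 fold change was −7.53 (−7.56 from pooled counts with 3 counts as the floor), and that of all genes was 0.02.

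In the QJSB libraries Cd79b was counted 157, 84 and 86 times and Cd79a 10, 9 and 3 times. Cd22 was counted 35, 24 and 14 times and Cd72 17, 10 and 6 times. Both pairs were far below every normal library, with log2 fold changes from −7.53 (SE 0.28, adjusted p = 7.51e-06 by edgeR) for Cd79a to −5.32 (SE 0.23, adjusted p = 9.38e-06 by edgeR) for Cd79b. Ms4a1 had 10, 0 and 1 counts, Cr2 2, 0 and 2 counts and Cxcr5 4, 5 and 0 counts. Of the 11 Ms4a1 counts 10 came from QJSB library 1, which was also the highest QJSB library for Cd79a, Cd79b, Cd22 and Cd72. Fcmr had 2, 0 and 0 counts, or 0.113% of normal (95% counting interval 0.0136 to 0.407%). Fcer2a had no count in any QJSB library. With 3 counts over the group as the floor this is 540-fold lower than normal, and the 95% counting interval reached up to 0.228% of normal.

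Leucogen with cyclophosphamide was compared with the normal group in the same way. All 9 genes were called lower by edgeR, where 19.8% of all 14637 genes tested were called lower and 17.8% higher. Again only Cd79b and Cd22 had at least 10 counts in every library, and the others passed the filter through the normal group. In each of the 9 the groups did not overlap, as in 32.3% of all genes tested. The 9 genes had 0.868% of their normal counts (95% counting interval 0.767 to 0.979%). In all, 6 of the 9 had 3 counts or fewer over the leucogen group, so the median of −9.70 from the fit depended on such genes. From pooled counts with 3 counts as the floor the median was −8.57, and that of all genes was −0.01.

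In the leucogen libraries Cd79b was counted 65, 62 and 51 times, Cd22 11, 32 and 16 times and Cd72 7, 4 and 11 times. These 3 genes were the ones still counted in every leucogen library. Against normal, log2 fold changes were −5.67 for Cd79b (SE 0.11, adjusted p = 1.65e-09 by edgeR), −5.31 for Cd22 (SE 0.25, adjusted p = 4.41e-07 by edgeR) and −5.87 for Cd72 (SE 0.28, adjusted p = 1.80e-07 by edgeR). Cd79a had 0, 0 and 2 counts, Ms4a1 0, 3 and 0, Cxcr5 2, 0 and 1, Fcer2a 0, 0 and 1 and Fcmr 1, 0 and 0. The 2 counts of Cd79a were 0.0684% of normal (95% counting interval 0.00827 to 0.247%). Cr2 had no count in any leucogen library. Again with 3 counts as the floor, this is 1187-fold lower than normal, and the 95% counting interval reached up to 0.104% of normal.

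The QJSB group was set against the model group, which asks what differed in the marrow when QJSB was given with cyclophosphamide. Only Cd79b, Cd22 and Cd72 had enough counts to be tested, and 0 of the 3 were called by edgeR, by DESeq2 or by limma. By edgeR, 0% of all 14486 genes tested were called lower and 0% higher. With an unadjusted p under 0.05 and the same fold, 2 of the 3 receptor genes were lower, where 1.40% of all genes were. None of the 9 receptor genes had groups that did not overlap with QJSB lower, which 5.30% of all genes tested had. The highest QJSB library of each gene thus reached into the range of the model libraries.

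For Cd79b the levels were 18.9, 8.87 and 7.39 CPM in the model and 8.43, 4.86 and 5.24 CPM in the QJSB libraries. The groups overlapped through QJSB library 1. The log2 fold change was −0.94 (SE 0.40, 95% interval −1.85 to −0.03), with an unadjusted p = 0.0440 and an adjusted p = 0.767 by edgeR. For Cd22 the levels were 3.87, 1.77 and 2.66 CPM in the model and 1.88, 1.39 and 0.853 CPM in the QJSB libraries. Here too a single QJSB library reached the lowest model library. The log2 fold change was −1.02 (SE 0.44, 95% interval −2.02 to −0.02), with an unadjusted p = 0.0463 and an adjusted p = 0.767 by edgeR.

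Cd72 had 1.21, 0.780 and 0.346 CPM in the model and 0.913, 0.579 and 0.366 CPM in the QJSB libraries. The ranges lay within each other, and the log2 fold change of −0.34 had an interval from −1.67 to 1.00. Without model library 1 neither Cd79b nor Cd22 passed the unadjusted cutoff, and the same held without QJSB library 2 and without QJSB library 3. Model library 1 also had the most counts of other B lineage genes, with a summed level of B lineage factors of 132 CPM against 46.2 and 32.4 in the other 2. Its part in the result was not tested beyond leaving it out.

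The 6 receptor genes with too few counts for this test are given by their pooled counts. Cd79a had 84 counts in the model and 22 in the QJSB group, a QJSB level of 24.4% of the model level (95% counting interval 14.5 to 39.4%), and 64 of the 84 were from model library 1. Ms4a1 had 4 and 11 counts, the only one of the 9 genes with more in the QJSB group, at 256% of the model level with a counting interval from 75.9 to 1103%. Cr2 had 7 and 4 counts, Cxcr5 16 and 9, Fcmr 3 and 2 and Fcer2a 3 and 0. Their counting intervals, 11.4 to 209% for Cr2 and 20.4 to 126% for Cxcr5, included the model level. In Ms4a1, Cr2, Cxcr5, Fcmr and Fcer2a a difference was not detectable at this depth. The interval of Cd79a covers counting error only and not the spread between mice. Cd79a was called in no fit that tested it. Its adjusted p was 0.889 by DESeq2, 0.819 by edgeR without a filter and 0.381 by edgeR over all 12 libraries.

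Leucogen, the positive control, was compared with the model group. Again 3 receptor genes were tested, and 1 of them was called lower by edgeR, where 11.5% of all 14184 genes tested were called lower and 11.6% higher. In 3 of the 9 receptor genes, Cd79b, Cd79a and Cr2, every leucogen library was below every model library, and this held for 23.8% of all genes tested. Cd79a and Cr2 were not among the genes tested here. For Cr2 the separation was that of 5, 1 and 1 counts from 0, and the 95% counting interval reached up to 91.9% of the model level. The call was Cd79b, with 5.16, 4.50 and 4.90 CPM in the leucogen libraries, all below the lowest model library at 7.39 CPM. The log2 fold change was −1.27 (SE 0.36, 95% interval −2.07 to −0.47, adjusted p = 0.0292 by edgeR).

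The call of Cd79b was lost without model library 1, when the log2 fold change was −0.72 (adjusted p = 0.0796 by edgeR). It was also lost when any single leucogen library was left out, at a log2 fold change between −1.31 and −1.21. Cd22 had 0.874, 2.32 and 1.54 CPM in the leucogen libraries, which overlapped the model libraries. Its log2 fold change was −0.80 (SE 0.44, adjusted p = 0.202 by edgeR), with an interval from −1.80 to 0.20. Cd72 had 0.556, 0.290 and 1.06 CPM, and its log2 fold change of −0.33 had an interval from −1.73 to 1.07. Pooled over the group, Cd79a had 2 counts with leucogen against 84 in the model group, or 3.15% of the model level (95% counting interval 0.376 to 11.8%). In a fit of all 12 libraries, which kept Cd79a in the test, its adjusted p was 0.0163 by edgeR, and over the alternatives that tested it the adjusted p ranged from 0.00307 to 0.110.

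**Figure D4:**
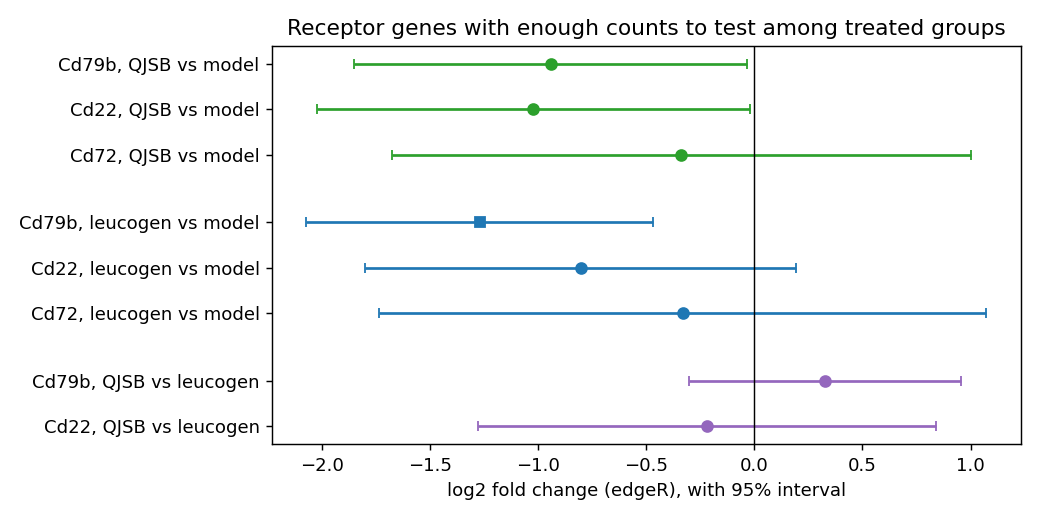
Log2 fold changes among the groups given cyclophosphamide, for the receptor genes with enough counts to be tested, by edgeR with 95% intervals. The square marks the 1 call, Cd79b with leucogen against the model group, and the line at 0 marks no change. The intervals of Cd79b with leucogen and of Cd79b and Cd22 with QJSB, each against the model group, lie below 0, and the other 5 include 0.

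QJSB and leucogen were also compared with each other. Of the 9 receptor genes, 2 were tested and 0 were called by edgeR, 0 with an unadjusted p under 0.05 and 0 by DESeq2 or limma, where 11.7% of all 14266 genes tested were called lower with QJSB and 12.9% higher. In none of the 9 was every QJSB library below every leucogen library, as in 23.2% of all genes tested. The difference in Cd79b was 0.33 on the log2 scale (SE 0.28, 95% interval −0.30 to 0.96) and that in Cd22 was −0.22 (SE 0.46, 95% interval −1.28 to 0.84). These intervals still allow a difference of Cd22 of over 1 on the log2 scale in one direction. Cd79a had 22 counts in the QJSB and 2 in the leucogen group, but the lowest QJSB library, at 0.183 CPM, was below the highest leucogen library, at 0.192 CPM.

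The molecules that work with these receptors did not all fall with them. Of 20 genes of B cell receptor signaling, 10 were called lower in the model than in the normal group and 2 higher. Their median log2 fold change was −0.53. Of all genes tested, 19.0% were called lower and 16.1% higher. The 3 with the highest normal level were Ptprc (CD45), Syk and Lyn, which are also used by other blood cells. Ptprc changed by −0.79 (SE 0.21, adjusted p = 0.0179 by edgeR) and Syk by −1.11 (SE 0.12, adjusted p = 0.000205 by edgeR). Lyn had 334 ± 7.55 CPM in the normal and 308 ± 19.6 CPM in the model group (SD, n = 3) and was not called. The 2 genes called higher were Vav1 (0.70, SE 0.14) and Fcgr2b (0.72, SE 0.18), named after their values were seen.

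With leucogen, 19 genes of the signaling list were tested against the model group. Of these, 4 were called higher, namely Bank1, Prkcb, Cd37 and Ptprc, and 0 lower. Of all genes tested, 11.6% were called higher and 11.5% lower. The 4 genes too were named after their values were seen. Against the normal group, 7 of the 20 genes were called lower and 3 higher with QJSB, where 19.9% of all genes tested were lower and 18.0% higher. With leucogen 6 of the 20 were lower and 2 higher, where 19.8% of all genes tested were lower and 17.8% higher. Against the normal group, the shares called higher in the list were thus not above those of all genes.

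Of the 6 ligands and binding partners of the receptors, 5 were tested, and 4 were called lower and 1 higher in the model group, at a median of −3.15. Of all genes tested, 19.0% were called lower and 16.1% higher. Log2 fold changes were −3.76 for Ighm, the heavy chain of IgM (SE 0.42, adjusted p = 0.000523 by edgeR), and −6.05 for Ighd, the heavy chain of IgD (SE 0.42, adjusted p = 6.07e-05 by edgeR). C3, whose fragments bind CD21, rose by 0.95 (SE 0.26, adjusted p = 0.0206 by edgeR). It was also higher with QJSB (1.88, SE 0.36) and with leucogen (1.61, SE 0.17) than in the normal group. Cxcl13, the ligand of CXCR5, had no count in the normal libraries and 15 in the model group. Against the normal group, 3 of these genes were called lower and 1 higher with QJSB, and 4 lower and 1 higher with leucogen. The shares of all genes tested were 19.9% lower and 18.0% higher with QJSB, and 19.8% lower and 17.8% higher with leucogen.

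Genes of B cell precursors and B lineage factors were lower as well. All 7 B lineage factors were called lower in the model group, at a median of −5.26, among them Ebf1 (−4.72, SE 0.88), Ikzf3 (−6.06, SE 0.39) and Pax5 (−5.31, SE 1.06). Of 7 precursor genes 5 were called lower, at a median of −3.14. Of all genes tested, 19.0% were called lower. Log2 fold changes were −3.74 for Rag1, which cuts antigen receptor genes (SE 1.12, adjusted p = 0.0417 by edgeR), and −3.58 for Il7r, the receptor of IL-7 (SE 0.48, adjusted p = 0.00155 by edgeR). Dntt, which adds bases at their joints, had 66.1 ± 12.8 CPM in the normal and 42.4 ± 38.0 CPM in the model group (SD, n = 3) and was not called. With QJSB and with leucogen all 7 factors and all 7 precursor genes were called lower than normal, where 19.9% and 19.8% of all genes tested were. Vpreb3, a gene of the precursor list that was named after its values were seen, had 717 counts in the normal group, 23 in the model group and 0 in every QJSB and leucogen library.

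In the model libraries the summed level of the precursor genes was 209, 72.7 and 25.1 CPM, and that of the 9 receptor genes 29.0, 12.9 and 11.0 CPM. Both were highest in model library 1, which had the lowest summed level of late neutrophil markers, 3744 CPM against 15004 and 9594. With QJSB the precursor genes summed to 52.3, 11.9 and 12.6 CPM and the receptor genes to 12.7, 7.64 and 6.82 CPM, both highest in library 1. Leucogen libraries had 14.4, 13.3 and 22.4 CPM of the precursor genes and 6.83, 7.32 and 7.87 CPM of the receptor genes, a narrower range. Whether the makeup of these libraries sets the receptor levels was not tested.

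**Figure D5:**
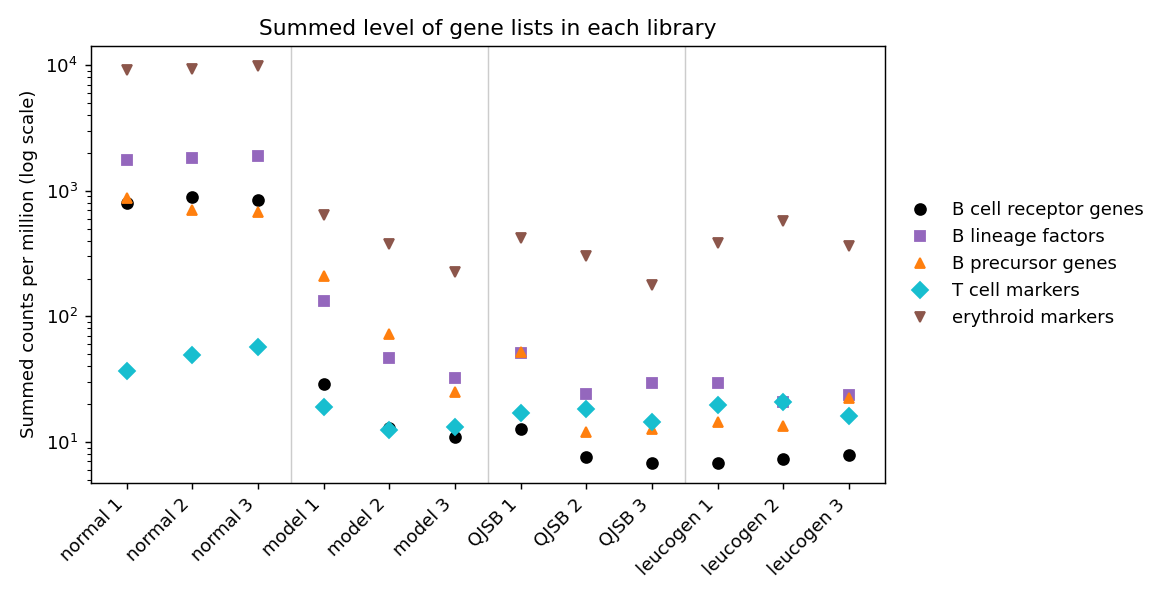
Summed level of the 9 receptor genes and of 4 other gene lists in each library, in CPM on a log axis. The 9 treated libraries lie below the 3 normal ones for all 5 lists, and model library 1 is the highest treated library for the receptor genes, the B lineage factors and the precursor genes.

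Markers of other cell types were read beside these changes. Of the erythroid markers, 8 of 8 were called lower in the model group, and their summed level was 9223 to 9889 CPM in the normal and 224 to 645 CPM in the model libraries. Of 7 T cell markers tested 6 were lower, at 36.8 to 56.7 CPM against 12.3 to 18.9 CPM. Of 10 late neutrophil markers 4 were lower, and of 8 monocyte and macrophage markers 2 were lower and 3 higher. Of 5 plasma cell markers tested 3 were lower and 1, Xbp1, higher, and of 5 plasmacytoid dendritic cell markers 1 was lower. For comparison, 19.0% of all genes tested were called lower and 16.1% higher. The erythroid and T cell markers were thus lower along with the receptor genes. The 1 of 5 plasmacytoid dendritic cell markers was near the share of all genes, and the monocyte and macrophage markers went both ways. Late neutrophil markers summed to 38048 to 43821 CPM with leucogen and to 5654 to 31469 CPM with QJSB, and their part in the receptor levels was not tested.

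Profiles over the 12 libraries were ranked by likeness to the mean profile of the 9 receptor genes, among genes that passed the low-count filter. The 9 genes and the gene segments of antigen receptors were left out, and with them, by its name, Ighd. Names starting with Gm and a digit or ending in Rik were left out too, as were rows named by an identifier. The 5 nearest genes of those ranked were Klhl14, Igkc, Il2ra, Iglc2 and Ikzf3. Likeness was the mean absolute difference of centred log2 CPM, which was 0.25 for Klhl14, 0.30 for Igkc, 0.36 for Il2ra, 0.40 for Iglc2 and 0.41 for Ikzf3, against a median of 2.66 over 12687 genes. Igkc and Iglc2 encode the constant parts of the light chains, Il2ra the CD25 chain of the IL-2 receptor and Ikzf3 the factor Aiolos. Igkc had 432 ± 55.4 CPM in the normal and 4.46 ± 1.89 CPM in the model group (SD, n = 3), and Il2ra had 54.9 ± 9.05 and 0.604 ± 0.487 CPM. Klhl14 had 1055 counts in the normal group, 3 in the model group and 0 in the other 2.

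Among the 9 receptor genes themselves, Fcmr was nearest to the mean profile, with a mean absolute difference of 0.33 on the log2 scale, and Ms4a1 farthest, at 1.31. Cd79b and Cd22 were nearest to each other (0.35), as were Fcer2a and Fcmr (0.38) and Cd72 and Cxcr5 (0.38). The pair farthest apart was Ms4a1 and Cd22, at 1.94. These differences rest on the same 12 libraries as the levels above and describe them only.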

How the data were processed

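RNA from femoral marrow of 12 mice was sequenced after removal of ribosomal RNA, in strand-specific libraries. Reads were cleaned by the authors with Seqtk, and HISAT2 was used for mapping (GRCm38.p4). The counting program and annotation version are not given in the sources used here. The deposited table holds read counts per gene and library as whole numbers, without normalization, and FPKM, which the authors computed per transcript length and total fragments. It has 0 unused sample columns. The reading of its headings was set against mean normalized counts in the supplement: 298, 300 and 300 of 300 genes were within 1% under the reading used, and at most 10 of 300 under any other.

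Counts were tested with edgeR 4.0.16 in R 4.3.3 (TMM scaling, filterByExpr with a minimum of 10, robust quasi-likelihood fit of the 2 groups compared), with Benjamini-Hochberg adjustment over all genes tested. Each SE is the size of the log2 fold change divided by the square root of the F statistic of the test. It is not a direct output of the fit, and the 95% intervals of log2 fold changes rest on it. For genes near 0 counts it is a poor guide to the spread. CPM used TMM-scaled library sizes. Pooled shares carry exact binomial (Clopper-Pearson) 95% intervals, from scipy 1.17.1, which cover counting error only. The floor for a group at 0 was 3 counts over the group. Alternatives were DESeq2 1.42.0, limma 3.58.1 on log2(FPKM + 0.1), other scalings and filters, a fit of all 12 libraries, the replicate block and leaving out each library. The scripts were tested on simulated data.

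Groups were taken from the sample titles. Same-numbered model and QJSB libraries deviated together from their group means (correlations 0.426, 0.123 and 0.107 over 15310 genes) and were treated as pairs in the replicate block; in the other comparisons not all 3 correlations were above 0.1. Named genes were the 9 receptor genes, the 3 genes of each context list with the highest normal CPM and the 5 genes most like the 9 among those ranked. The members and lists were chosen with earlier results of these data known.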

Additional observations from a re-analysis of the deposited data

How the results depend on the processing

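Against the normal group, the 9 calls in each of the model, QJSB and leucogen groups held under every alternative but 1. With at least 10 counts in every library only 2 receptor genes could be tested, and 2 were called in each of the 3 comparisons. For QJSB against the model group, 0 genes were called throughout, and the replicate block also left 0 called and 2 past the unadjusted cutoff. Over all genes, 18 were called under that block (14 higher, 4 lower) and 8 by DESeq2. The unadjusted count was 4 in a fit of all 12 libraries, 0 by limma, and 0 to 2 when single libraries were left out. For leucogen against the model group, 2 receptor genes were called (Cd79b and Cd79a) by DESeq2, without a filter, in a fit of all 12 libraries and by limma, and 0 to 2 without single libraries.

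A change of sign was seen in 5 values, none of them called. The log2 fold change of Cd72 ranged from −0.73 to 0.15 for QJSB and from −0.87 to 0.17 for leucogen against the model group when single libraries were left out, being 0.15 and 0.17 without model library 1 and 0.05 for leucogen without leucogen library 2. That of Cd22 for QJSB against leucogen ranged from −0.52 to 0.17, being 0.02 without QJSB library 3 and 0.17 without leucogen library 2. Of the other alternative log2 fold changes, 458 kept their direction and side of the threshold, and 4, all Cd79b with leucogen against the model group, lost the call. The cause was not tested. Leaving out single libraries, an alternative for pooled counts chosen after seeing the data, gave 1.41 to 2.59% of normal for the 9 genes in the model group, 0.860 to 1.22% with QJSB and 0.842 to 0.898% with leucogen.

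Scaling by total counts moved the median of all genes to 0.14 (model against normal, from 0.02), −0.22 (leucogen against model, from −0.05) and −0.10 (QJSB against model, from −0.02). The share of calls that were higher went from 45.8% to 56.3% in the first of these and from 50.1% to 30.2% in the second, where limma gave 32.6%. Counts of 0 to 16 per group limited the tests of Ms4a1, Cr2, Fcer2a, Fcmr and Cxcr5 among the treated groups.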
